A study of Homo sapiens with 16 samples.

Results

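The genes described here are the small nucleolar RNAs (snoRNAs) and small Cajal body RNAs (scaRNAs) that could be measured in LNCaP cells, a human prostate cancer cell line with an active androgen receptor. They were taken by symbol (SNORA, SNORD or SCARNA followed by a number) and by a mean of 10 or more over the 16 columns of the deposited table of size-factor normalized counts. This gave 135 members of 484 genes with such a symbol, among 60252 genes in the table: 57 SNORA, 69 SNORD and 9 SCARNA genes. Members were thus chosen by their measured mean over all 16 samples, and their levels are a description. The last genes inside the limit were SNORD116-17, SNORD116-23 and SCARNA3, with means of 10.3, 10.2 and 10.04 normalized counts. The first outside it were SNORD7, SNORA74B and SNORD124, with 9.88, 9.25 and 9.08. Of the 349 genes left out, 229 had no count in any library.

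Strand-specific RNA-seq was run on total RNA, with 2 libraries in each of 8 groups. LNCaP cells carried siOGT1, siOGT2, OSMI2 or Scr, and each of these 4 arms was given either AT7519 at 0.5 µM or DMSO, its solvent control, for 4 h before harvest. siOGT1 and siOGT2 are siRNAs against OGT, the enzyme that adds O-GlcNAc to nuclear and cytoplasmic proteins, with 48 h of knockdown. OSMI2 is a small-molecule OGT inhibitor that the labels list in the siRNA field, and Scr is the scrambled siRNA. How much OSMI2 was used, for how long, and with or without scrambled siRNA was not given in the sources used here. AT7519 is an inhibitor of several cyclin-dependent kinases, among them CDK9, which phosphorylates RNA polymerase II as it enters elongation. The labels do not say whether the 2 replicates of a group came from separate cultures. The p-values therefore reflect only how far these libraries spread, which may be technical.

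Most human snoRNAs are not transcribed from genes of their own. They lie in introns of host genes, many of which encode ribosomal proteins and translation factors or are non-coding RNAs whose names begin with SNHG (small nucleolar RNA host gene), and they are freed by splicing, debranching and trimming by exonucleases. SNORD genes encode box C/D snoRNAs, which guide ribose methylation through the fibrillarin particle. SNORA genes encode box H/ACA snoRNAs, which guide pseudouridylation through the dyskerin particle. SCARNA genes encode the related guides that modify spliceosomal snRNAs in Cajal bodies. A few members, such as SNORD3A (U3), are transcribed from their own promoters and serve in the cleavage of the ribosomal RNA precursor.

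The sequences of the members on which the results turn are printed here as GENCODE release 29 gives them, 5′ to 3′ on the transcribed strand. Coordinates are GRCh38, while the counts were made on GRCh37, so they serve to identify the genes only. Capitals mark a C box (TGATGA) within the first 25 bases and a D box (CTGA) within the last 15 bases of SNORD genes, and an ACA that ends at most 5 bases before the 3′ end of SNORA genes. The first 3 are all in introns of RPS12, on the plus strand of chromosome 6: SNORD101 at chr6:132815307-132815379, SNORD100 at chr6:132816802-132816877 and SNORA33 at chr6:132817219-132817348.
SNORD101: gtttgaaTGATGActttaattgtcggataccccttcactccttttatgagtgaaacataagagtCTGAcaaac
SNORD100: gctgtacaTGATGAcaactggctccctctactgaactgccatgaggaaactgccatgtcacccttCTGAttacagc
SNORA33: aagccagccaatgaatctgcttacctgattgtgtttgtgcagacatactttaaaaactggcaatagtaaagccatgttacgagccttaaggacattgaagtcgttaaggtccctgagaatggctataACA
SNORD83A (chr22:39315213-39315307, minus strand, in an intron of RPL3) and SNORA3B (chr11:8685439-8685569, plus strand, in an intron of RPL27A) are abundant members of other ribosomal protein genes.
SNORD83A: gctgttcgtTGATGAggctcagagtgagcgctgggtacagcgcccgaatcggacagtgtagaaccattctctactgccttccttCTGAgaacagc
SNORA3B: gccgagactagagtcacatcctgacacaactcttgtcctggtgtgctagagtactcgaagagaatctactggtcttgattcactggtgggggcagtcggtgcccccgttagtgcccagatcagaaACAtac
SNORD14A (chr11:17074654-17074744, minus strand, in an intron of RPS13) and SNORD14E (chr11:123058077-123058161, minus strand, in an intron of HSPA8) are related copies of the U14 snoRNA, 77.2% identical, of which AT7519 raised SNORD14A only.
SNORD14A: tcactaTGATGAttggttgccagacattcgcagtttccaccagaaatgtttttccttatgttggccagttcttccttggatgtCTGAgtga
SNORD14E: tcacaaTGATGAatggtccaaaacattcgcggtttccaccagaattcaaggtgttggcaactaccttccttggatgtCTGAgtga
SNORD116-1 (chr15:25051477-25051571) and SNORD116-30 (chr15:25108268-25108352), both on the plus strand in introns of SNHG14, are copies from the early and the late end of the SNORD116 cluster.
SNORD116-1: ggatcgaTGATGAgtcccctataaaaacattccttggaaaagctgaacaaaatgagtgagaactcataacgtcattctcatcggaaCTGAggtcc
SNORD116-30: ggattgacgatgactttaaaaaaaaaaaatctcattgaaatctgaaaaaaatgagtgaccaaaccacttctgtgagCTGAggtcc
Both boxes were found in these windows in 51 of 69 SNORD members (73.9%), in none of the 57 SNORA members and in 3 of the 9 SCARNA members. The ACA near the 3′ end was found in 53 of 57 SNORA members (93.0%), in 10 of 69 SNORD members and in 5 of 9 SCARNA members.

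Total counts ran from 40216911 to 147019364 per library, and the 135 members together received 3031 to 20406 of them. They thus made up 0.0153% to 0.0273% of the counts in the 8 AT7519 libraries and 0.00564% to 0.00760% in the 8 DMSO libraries. A read over a snoRNA can also come from the unspliced intron of its host. Mature snoRNA and host intron cannot be told apart in these counts. Annotation matters too: of 122 candidate genes that lie under a same-strand exon of another gene, 91 (74.6%) had no count at all, against 138 of the 362 others (38.1%). Under such an exon lie 16 of the members, among them SCARNA9 and SNORD37, and their counts are less certain. The cells carried the luminal prostate cancer markers at 81.6 to 2410 CPM (counts relative to library size, scaled by TMM), while the leukocyte markers stayed at or below 0.761 CPM and the basal markers at or below 1.0 CPM. Of the stromal markers COL1A1 had 10.8 to 40.8 CPM and the other 3 stayed at or below 0.678 CPM. Of the neuroendocrine markers SYP had 2.56 to 7.08 CPM and the other 2 stayed at or below 0.192 CPM. The part of COL1A1 and SYP in the results was not tested. OGT had 11.01 and 10.98 CPM in siOGT1 with AT7519, 20.7 and 14.6 in siOGT1 with DMSO, 29.3 and 33.8 in siOGT2 with AT7519, and 36.0 and 29.8 in siOGT2 with DMSO. In OSMI2 it had 422 and 408 CPM with AT7519 and 349 and 336 with DMSO, and in Scr 256 and 314 with AT7519 and 274 and 263 with DMSO.

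Summed snoRNA levels were higher after 4 h of AT7519 than after DMSO in every arm. The summed level of the 135 members lay between 167 and 301 CPM in the 8 AT7519 libraries (median 234) and between 51.8 and 72.5 CPM in the 8 DMSO libraries (median 59.2), with no overlap. Box C/D members summed to 96.8 to 178 CPM with AT7519 and to 28.4 to 39.8 CPM with DMSO, and box H/ACA members to 61.4 to 111 CPM with AT7519 and to 18.8 to 26.9 CPM with DMSO. The scaRNAs summed to between 6.20 and 12.5 CPM with AT7519 and between 4.09 and 6.99 CPM with DMSO, and these ranges overlap. In Scr, the scaling that moved all genes most, by library size alone, set their median at -0.30 on the log2 scale in place of -0.05, which is small beside the changes of most called members. All values are shares of a library, so a change of a member's RNA per cell and a change in the cells' total RNA cannot be told apart.

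Gene by gene, edgeR's quasi-likelihood test with Benjamini-Hochberg adjustment over 23830 tested genes called 78 of 135 members higher and 1 lower with AT7519 in siOGT1, against 19.4% of all tested genes called higher and 22% lower. In siOGT2 it called 85 members higher and 0 lower (22.2% and 22.8% of all genes). In OSMI2 it called 91 members higher and 1 lower (23.6% of all genes in each direction). In Scr it called 80 members higher and 0 lower, against 21.8% and 24.6% of all genes. The median log2 fold change of the members was 1.54 in siOGT1, 1.80 in siOGT2, 1.88 in OSMI2 and 1.65 in Scr, where that of all tested genes lay between -0.05 and 0.02. By class, box C/D members called higher numbered 40 of 69 in siOGT1, 43 in siOGT2, 47 in OSMI2 and 44 in Scr, where their median log2 fold change was 2.04. Box H/ACA members called higher numbered 34 of 57 in siOGT1, 37 in siOGT2, 38 in OSMI2 and 32 in Scr, with a median of 1.56 in Scr. For the scaRNAs it was 4 of 9 in siOGT1, 5 in siOGT2, 6 in OSMI2 and 4 in Scr, with a median of 1.14 in Scr. A group of 63 members was called higher in all 4 arms and 28 members were called higher in none. Both AT7519 libraries lay above both DMSO libraries for 109 members in siOGT1, 107 in siOGT2, 112 in OSMI2 and 111 in Scr. They lay below both for 4, 4, 5 and 3 members in the same order of arms. The shares of all tested genes that separate in this way, or that were called in all 4 arms or in none, were not counted. These counts of members are therefore descriptions only.

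The counts of higher members and their medians rest in part on how the members were chosen, since 43 of them had a mean under 10 over the DMSO libraries alone and none had a mean under 10 over the AT7519 libraries. Among the 92 members with a DMSO mean of 10 or more, 55 were called higher in siOGT1, 58 in siOGT2, 65 in OSMI2 and 54 in Scr, with median log2 fold changes of 1.40, 1.56, 1.59 and 1.43. The medians given here by class and by host include the 43. Over all 164 tested genes with a matching symbol, whatever their mean, the counts were 82, 94, 100 and 87 in the same order of arms. Of other short RNA genes, those called higher in Scr were 49 of 147 snRNA genes (33.3%), 35 of 113 miRNA genes (31.0%) and 66 of 185 genes of the class misc_RNA (35.7%). These shares were not tested against each other.

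SNORA33 was the most abundant member by mean normalized count, at 575 over the 16 libraries. It is a predicted guide for a large-subunit rRNA pseudouridine and sits in RPS12, a gene for a small-subunit ribosomal protein. It had 10.5 and 12.9 CPM with AT7519 against 1.27 and 1.45 CPM with DMSO in siOGT1, 12.9 and 14.2 against 1.44 and 1.77 in siOGT2, 14.7 and 15.2 against 1.74 and 1.91 in OSMI2, and 18.1 and 21.4 against 2.41 and 2.76 in Scr. Every AT7519 library was far above every DMSO library, and the log2 fold change was 3.11 ± 0.17 (SE) in siOGT1, 3.08 ± 0.17 in siOGT2, 3.03 ± 0.17 in OSMI2 and 2.94 ± 0.16 in Scr (adjusted p = 6.06e-11 in Scr, edgeR). SNORD83A, a box C/D RNA in RPL3, had 12.97 and 19.04 CPM with AT7519 against 1.13 and 0.975 CPM with DMSO in Scr, a log2 fold change of 3.92 ± 0.27 (adjusted p = 2.48e-09, edgeR). In siOGT1 it had 10.4 and 13.8 CPM with AT7519 against 0.805 and 0.598 CPM with DMSO, and its groups were as far apart in siOGT2 and OSMI2, with log2 fold changes of 3.83 and 3.62. SNORA3B, an H/ACA RNA in RPL27A, had 8.76 and 10.9 CPM with AT7519 against 0.725 and 0.808 CPM with DMSO in Scr, with a log2 fold change of 3.68 ± 0.23 there and of 3.93, 4.44 and 3.83 in siOGT1, siOGT2 and OSMI2. SNORA71B, in the non-coding host SNHG17, had 7.62 and 10.98 CPM with AT7519 against 0.752 and 1.10 CPM with DMSO in Scr (log2 fold change 3.35 ± 0.34). Over these 4 abundant members and 4 arms the fitted rise ran from 7.59-fold (SNORA71B in siOGT2) to 21.7-fold (SNORA3B in siOGT2).

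**Figure D1:**
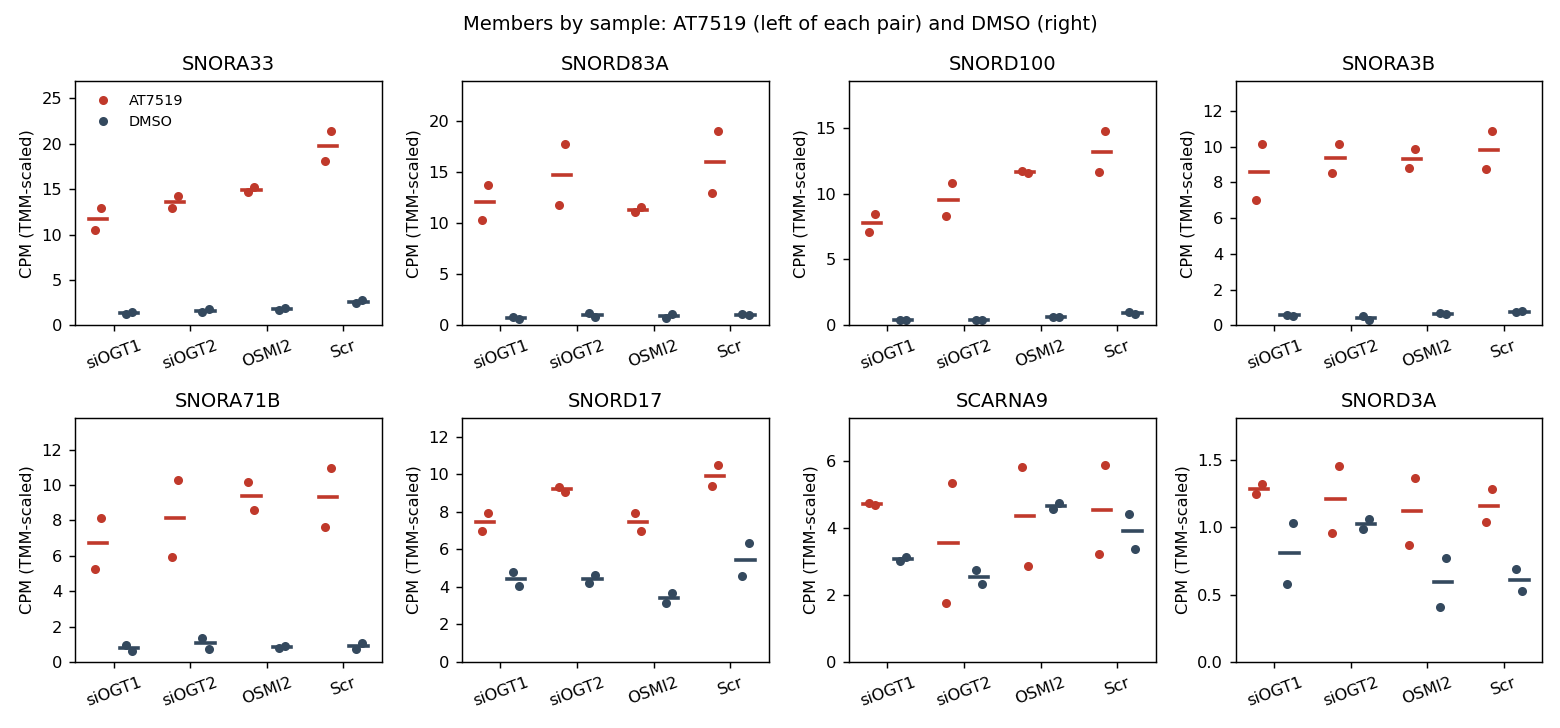
CPM on a linear axis from 0 in each library for 8 members, with AT7519 libraries (red) to the left of DMSO libraries (dark) in each arm; points are libraries and bars are means of 2. SNORA33, SNORD83A, SNORD100, SNORA3B and SNORA71B stand far above their DMSO libraries in all 4 arms, SNORD17 stands closer to them, and SCARNA9 and SNORD3A overlap with DMSO in some arms.

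Not all abundant members responded so strongly. SNORD17, a box C/D guide for the large-subunit rRNA in SNX5, was the third most abundant member. It had 9.39 and 10.5 CPM with AT7519 against 4.57 and 6.34 CPM with DMSO in Scr, and its log2 fold change was 0.75 in siOGT1, 1.06 in siOGT2, 1.13 in OSMI2 and 0.87 ± 0.17 in Scr, called in each arm (adjusted p = 0.000228 in Scr, edgeR). SNORA14B, an H/ACA RNA in TOMM20, had 3.64 and 5.25 CPM with AT7519 against 2.27 and 3.36 CPM with DMSO in Scr, with a log2 fold change of 1.18 in siOGT1, 1.30 in siOGT2, 1.48 in OSMI2 and 0.67 ± 0.25 in Scr (adjusted p = 0.0305 in Scr, edgeR). Its call in Scr was lost without Scr AT7519 replicate 2 (0.39), without Scr DMSO replicate 1 (0.40) or with library-size scaling (0.43, adjusted p = 0.183, edgeR).

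The largest fitted rises belonged to box C/D members that were nearly absent with DMSO. Of those named here, SNORD53, SNORD8, SNORD70, SNORD117, SNORD127 and SNORD58 had a mean under 10 over the DMSO libraries. They met the limit for members only through AT7519, so a large rise in them follows in part from how they were chosen. SNORD53, in WDR43, had 1.17 and 1.92 CPM with AT7519 against 0.00884 and 0.0418 CPM with DMSO in Scr, a log2 fold change of 6.03 ± 0.66 (adjusted p = 4.88e-07, edgeR). In siOGT1 both DMSO libraries had no SNORD53 count, against 181 counts with AT7519, which puts its level at least 90.8-fold higher with a floor of 3 counts over the 2 DMSO libraries. By the same floor SNORD8, in CHD8, was at least 44.8-fold higher in siOGT1 and SNORD70, in NOP58, at least 27.9-fold higher in siOGT2. SNORD59A, in ATP5F1B, had 4.01 and 4.98 CPM with AT7519 against 0.141 and 0.181 CPM with DMSO in Scr (log2 fold change 4.81 ± 0.44). SNORD117, in DDX39B, had 1.58 and 2.49 CPM with AT7519 against 0.0619 and 0.0975 CPM with DMSO in Scr (log2 fold change 4.70 ± 0.46). SNORD127, in PRPF39, had 0.427 and 0.649 CPM with AT7519 against 0.00884 and 0.0418 CPM with DMSO in Scr (log2 fold change 4.49 ± 0.69). Its neighbour SNORD58 had 48 counts over both AT7519 libraries against 3 over both DMSO libraries in Scr, and its log2 fold change of 1.55 in siOGT1 did not pass (adjusted p = 0.213, edgeR). Among H/ACA members the largest rises beside SNORA3B, SNORA71B and SNORA33 were those of SNORA53, in SLC25A3 (log2 fold change 3.05 ± 0.43 in Scr), and SNORA80E, in KHDC4 (2.91 ± 0.37).

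The counts of called members varied with the kind of host gene. All 12 members in introns of 10 ribosomal protein genes were called higher in all 4 arms, with a median log2 fold change of 3.17 in siOGT1, 3.34 in siOGT2, 3.61 in OSMI2 and 3.08 in Scr. They included SNORD100, SNORD101 and SNORA33 (RPS12), SNORD83A (RPL3), SNORA3B (RPL27A), SNORD14A (RPS13), SNORD72 (RPL37), SNORD73B (RPS3A), SNORD15B (RPS3), SNORA66 (RPL5) and SNORA65 (RPL12). SNORD100 had 11.6 and 14.7 CPM with AT7519 against 0.982 and 0.850 CPM with DMSO in Scr, a log2 fold change of 3.84 ± 0.20 and the smallest adjusted p of all members there (2.47e-11, edgeR). SNORD14A, a copy of the U14 snoRNA that is needed to process the small-subunit rRNA, had 5.81 and 10.4 CPM with AT7519 against 0.389 and 0.627 CPM with DMSO in Scr (log2 fold change 4.03 ± 0.34). The smallest rise of the 12 was that of SNORA65, with 1.82 and 2.27 CPM with AT7519 against 1.24 and 1.25 CPM with DMSO in Scr, a log2 fold change of 0.72 ± 0.26.

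Of 5 members in genes of translation factors, 4 were called higher in every arm: SNORD37 (EEF2), SNORD51 (EEF1B2), SNORA28 (EIF5) and SNORA19 (EIF3A). SNORD37 had 2.54 and 3.58 CPM with AT7519 against 0.318 and 0.125 CPM with DMSO in Scr, a log2 fold change of 3.70 ± 0.53. SNORD66 (EIF4G1) passed in no arm, at 0.223 and 0.236 CPM with AT7519 against 0.0265 and 0.139 CPM with DMSO in Scr. In the 71 members of other protein-coding hosts, 46 were called higher in siOGT1, 52 in siOGT2, 54 in OSMI2 and 46 in Scr, with a median log2 fold change of 1.84 in Scr. In the 41 members of non-coding hosts the counts were 16, 17, 20 and 17, with a median of 0.96 in Scr. These 41 held 2 unlike groups, seen only in the values: among the 20 members in SNHG14 just 4 were called higher in siOGT1, siOGT2 and Scr and 7 in OSMI2, whereas among the 21 others it was 12, 13, 13 and 13. The others include SNORD12B (ZFAS1), at 2.003 and 3.94 CPM with AT7519 against 0.548 and 0.376 CPM with DMSO in Scr, and SNORD99 (SNHG12), at 2.003 and 1.80 CPM with AT7519 against 0.654 and 0.543 CPM with DMSO. No test was made between the kinds of host, since the classes are small and share hosts.

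**Figure D2:**
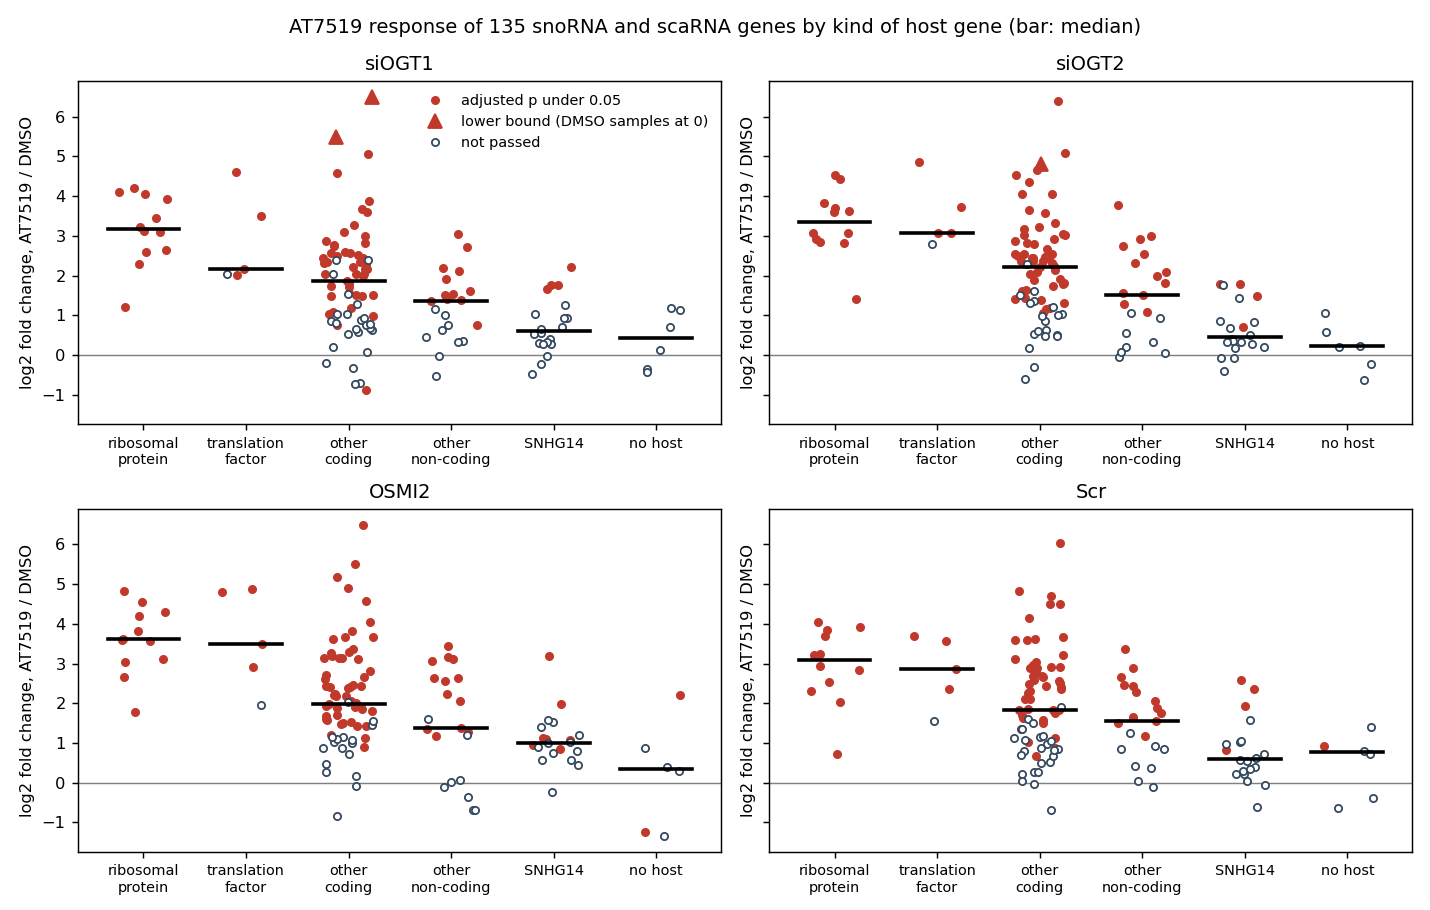
Log2 fold change of AT7519 over DMSO for each of the 135 members in 4 arms, by kind of host gene; filled points passed the test, open points did not, triangles are lower bounds where both DMSO libraries had no count, and bars are medians of the fitted values. All 12 members in ribosomal protein hosts are filled in every arm, while most of the 20 members in SNHG14 are open.

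Most members changed by more than their hosts did. For the 10 ribosomal protein hosts the log2 fold change ran from 0.68 to 0.75 in siOGT1, 0.65 to 0.81 in siOGT2, 0.78 to 0.87 in OSMI2 and 0.73 to 0.84 in Scr. Of the 129 members with a host, in 85 hosts, the fold change exceeded that of the host for 111 in siOGT1, 112 in siOGT2, 120 in OSMI2 and 113 in Scr, by a median log2 difference of 1.40, 1.57, 1.57 and 1.47. Members with a mean under 10 over the DMSO libraries are among them, and the hosts were not chosen by such a mean. Part of the difference can thus come from how the members were chosen, and the counts were not redone without those members. The 20 members in SNHG14 stood closer to their host: in siOGT2 their median log2 fold change was 0.45, beside 0.42 for SNHG14, and 10 of them lay above it. In Scr, SNORA65 did not exceed its host RPL12. RPS12 had 1923 and 1801 CPM with AT7519 against 1122 and 1113 CPM with DMSO in Scr (log2 fold change 0.74 ± 0.08), while its 3 snoRNAs changed by 2.85 to 3.84.

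Some members rose although their host fell: 11 in siOGT1, 6 in siOGT2, 11 in OSMI2 and 8 in Scr. Among them SCARNA1, SNORD8, SNORD53 and SNORA28 had a mean under 10 over the DMSO libraries. These are members only through their AT7519 libraries, so their rise follows in part from how they were chosen. The counts were not redone without such members. SCARNA1, a guide for U2 snRNA pseudouridylation in PPP1R8, was among them in each arm. It had 0.705 and 1.24 CPM with AT7519 against 0.115 and 0.0279 CPM with DMSO in Scr (log2 fold change 3.62 ± 0.72), where PPP1R8 changed by -0.54 ± 0.10 (adjusted p = 0.000158, edgeR). SNORD8 was also among them in each arm, with a log2 fold change of 3.59 ± 0.75 in Scr, where its host CHD8, a chromatin remodeller, was called lower. SNORD53 and its neighbour SNORD53B rose by 6.03 and 2.91 in Scr, against -0.40 ± 0.11 for WDR43. SNORA28 rose by 2.86 ± 0.60 in Scr, where EIF5 changed by -0.35. Across the 129 hosted members the rank correlation between the member's and the host's log2 fold change was 0.11 in siOGT1, 0.17 in siOGT2, 0.20 in OSMI2 and 0.23 in Scr, a description only, as members of 1 host share its value.

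**Figure D3:**
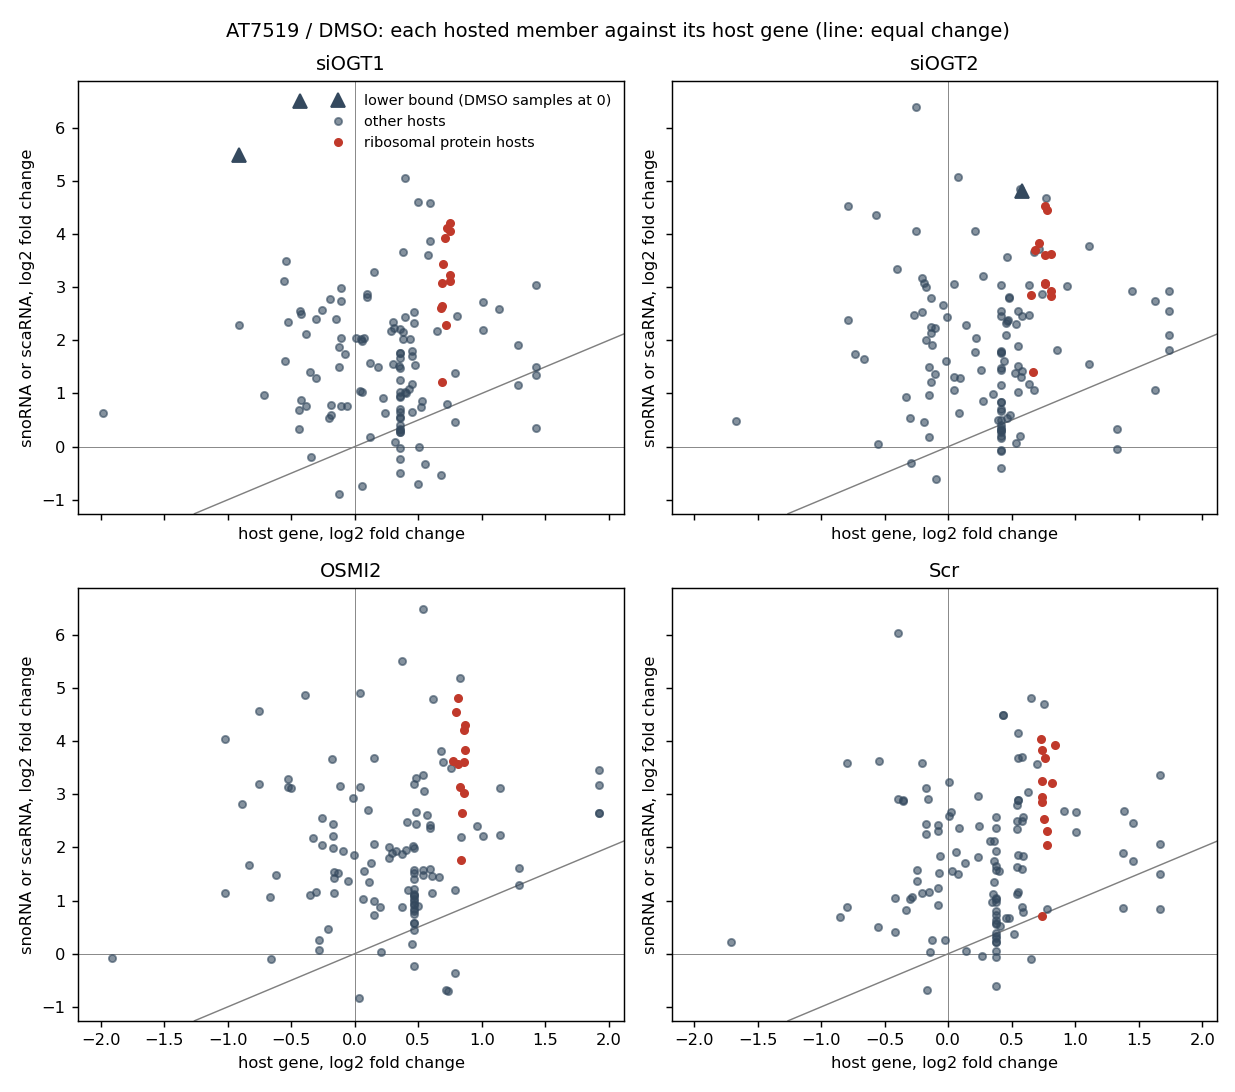
Log2 fold change of AT7519 over DMSO for each of 129 hosted members (vertical axis) against its host gene (horizontal axis) in 4 arms; the line marks equal change, red points have ribosomal protein hosts, and triangles are lower bounds where both DMSO libraries had no count. Of the 129 points, 111 to 120 lie above the line in an arm, and the red points stand at host values of 0.65 to 0.87.

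Neighbouring members of 1 host were not always called together. In Scr all 3 members in GNL3 were called higher (log2 fold changes from 2.25 to 3.12), as were all 3 in NOP58 (1.85 to 4.15), which encodes a core protein of the box C/D particle. In CHD8, SNORD8 was called higher in Scr and SNORD9 was not (3.59 and 0.88), and in SNHG17 3 of 4 SNORA71 copies were called (0.84 to 3.35). Other arms differed: both CHD8 members were called in siOGT1 and siOGT2, and 1 of them in OSMI2. All 4 SNORA71 copies in SNHG17 were called in siOGT2 and OSMI2, and 3 in siOGT1. The differences between neighbours were not tested. In Scr the rank correlation of the members' log2 fold change with host length was -0.33 (n = 129), with the distance from the host's start -0.28 (n = 129), with the distance to the next exon -0.14 (n = 129) and with the member's own length -0.20 (n = 135). With the member's mean over the DMSO libraries it was -0.33 as well (n = 135). These are descriptions over members that share hosts, with no test.

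SNHG14 is the long host of the SNORD116 and SNORD115 clusters, which are expressed from the paternal chromosome and lie in the region deleted in Prader-Willi syndrome. SNORD116 RNAs have no established rRNA target. The 15 copies from SNORD116-1 to SNORD116-24 showed small changes, with a median log2 fold change of 0.41 in siOGT1, 0.32 in siOGT2, 0.94 in OSMI2 and 0.55 in Scr, and 1, 2, 5 and 1 of them were called higher. The 4 copies at the far end (SNORD116-26, SNORD116-27, SNORD116-29 and SNORD116-30) had medians of 1.76, 1.77, 1.78 and 2.15, and 3, 2, 2 and 3 of them were called. SNORD116-30 was called in all 4 arms, at 0.167 and 0.398 CPM with AT7519 against 0.0531 and 0.0557 CPM with DMSO in Scr (log2 fold change 2.36 ± 0.69) and at 0.399 and 0.368 against 0.0437 and 0.0375 in OSMI2 (3.20 ± 0.73). This split was seen in the values and has no test. The 4 far copies had means of 13.7 to 17.4 normalized counts over the 16 libraries, near the limit of 10 for members. Those of the first group ran from 10.2 to 92.5. Copies that are low with DMSO can be members because they rose, so part of the split can come from how the members were chosen. The far copies also differ in sequence, being at most 85.4% identical to any other copy, whereas copies of the first group reach 100%. Counts of the first group are uncertain for that reason: 14 of the 19 SNORD116 members have another member at least 90% identical. SNORD109B, much farther along SNHG14, had log2 fold changes of 0.39 to 0.58 that did not pass in any arm, and SNHG14 itself changed by 0.36 ± 0.07 in siOGT1, 0.42 in siOGT2, 0.47 in OSMI2 and 0.37 ± 0.07 in Scr.

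**Figure D4:**
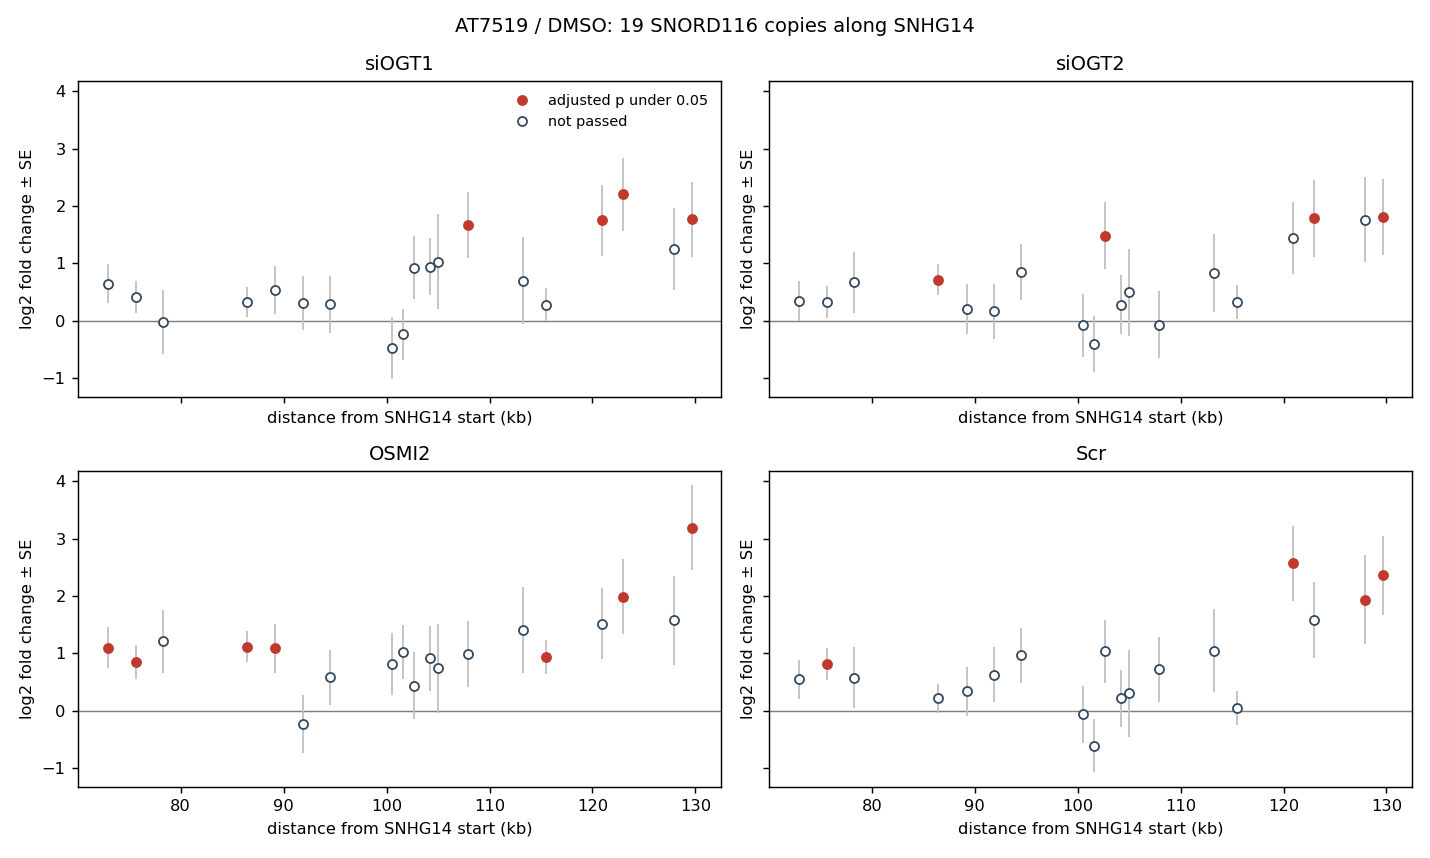
Log2 fold change of AT7519 over DMSO with its SE for 19 SNORD116 copies in 4 arms, by distance from the start of SNHG14 in kb (SNORD109B is not drawn); filled points passed the test. The 4 copies from 120.9 kb on lie at 1.25 to 3.20, and the 15 others lie between -0.61 and 1.67. Part of this difference can come from how the members were chosen.

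Copies of the same snoRNA at different places were not always called alike. SNORD14A rose in every arm, while SNORD14E, in HSPA8 (the constitutive heat shock cognate chaperone), had 1.04 and 1.09 CPM with AT7519 against 1.83 and 1.59 CPM with DMSO in Scr. The log2 fold change of SNORD14E was -0.61 in siOGT2, -0.84 in OSMI2 and -0.68 in Scr, none of which passed, and it was called lower in siOGT1 (-0.89 ± 0.34, adjusted p = 0.0431, edgeR). HSPA8 did not pass in any arm (-0.16 ± 0.13 in Scr). SNORA80E was called higher in each arm, whereas SNORA80A, SNORA80B, SNORA80C and SNORA80D, which lie elsewhere and are 75.5% to 77.1% identical to it, were called in none. Their counts are low, so the lack of a call does not show that they stayed level. In siOGT1 SNORA80A had 0.257 and 0.319 CPM with AT7519 against 0.112 and 0 with DMSO. In OSMI2 SNORA80C had 0.0591 and 0 CPM with AT7519 against 0.0875 and 0.0999 with DMSO. The difference between copies was not tested.

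Of the 6 members with no host gene, 0 were called higher in siOGT1 and siOGT2 and 1 in OSMI2 and in Scr. SNORD3A, the U3 snoRNA of the small-subunit processome, had 1.25 and 1.32 CPM with AT7519 against 0.581 and 1.03 CPM with DMSO in siOGT1, and 1.04 and 1.28 CPM with AT7519 against 0.690 and 0.529 CPM with DMSO in Scr. It passed in Scr only by a narrow margin (log2 fold change 0.92 ± 0.37, adjusted p = 0.0468, edgeR), and the call was lost when any 1 of the 4 Scr libraries was left out (adjusted p from 0.0533 to 0.227) or either siOGT2 DMSO library, and with library-size scaling (log2 fold change 0.68, adjusted p = 0.153, edgeR). In siOGT1, siOGT2 and OSMI2 the log2 fold change was 0.71, 0.24 and 0.88, and none passed. SNORD3B-1, 99.5% identical to SNORD3A, had log2 fold changes of 0.19 to 1.18 and passed in no arm, and reads of the 2 cannot be separated with certainty. SNORA11F was the only H/ACA member called lower in any arm: it had 0.797 and 0.500 CPM with AT7519 against 1.85 and 1.30 CPM with DMSO in OSMI2 (log2 fold change -1.23 ± 0.34, adjusted p = 0.00515, edgeR), and -0.64 in Scr did not pass.

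The log2 fold changes of the 9 scaRNAs in Scr ran from 0.22 to 3.62, and 4 were called higher. SCARNA1, described above, SCARNA6 and SCARNA3 were the largest rises in Scr. SCARNA6, in ATG16L1, had 0.946 and 0.884 CPM with AT7519 against 0.0884 and 0.0557 CPM with DMSO in Scr (log2 fold change 3.59 ± 0.59), and it was called in all 4 arms. SCARNA3, in COP1, was at the limit of the rule and had 0.167 and 0.413 CPM with AT7519 against 0.0354 and 0.0418 CPM with DMSO in Scr (2.89 ± 0.96). Its call was lost without Scr AT7519 replicate 2 (2.09) or either Scr DMSO library (2.75 and 2.98). SCARNA13, in SNHG10, was the fourth called there, at 0.890 and 0.825 CPM with AT7519 against 0.398 and 0.362 CPM with DMSO (log2 fold change 1.17 ± 0.38), and SCARNA5 had 1.14 ± 0.91, which did not pass. SCARNA9, a guide for U2 snRNA and the most abundant of the class, lies in CEP295 and under same-strand exons of other annotated genes. It had 3.23 and 5.87 CPM with AT7519 against 4.42 and 3.38 CPM with DMSO in Scr, with a log2 fold change of 0.22 ± 0.42 that did not pass, and its groups overlapped in all arms but siOGT1. CEP295, a centriole protein gene, was at the same time called lower, by -1.71 ± 0.11 in Scr. SCARNA8, in HAUS6, passed in siOGT1 (log2 fold change 0.98), siOGT2 (1.65) and OSMI2 (1.47), and its 0.50 ± 0.39 in Scr did not pass. SCARNA21, in CHD3, passed in siOGT1 (1.08) and OSMI2 (1.44), and its 0.49 in siOGT2 and 0.52 ± 0.34 in Scr did not pass. Whether these arms differ from Scr was tested by the interaction term, which did not pass for either.

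The lists of proteins that build or trim snoRNAs were chosen with earlier results of these data known. Of 22 genes for core proteins and assembly factors, 13 were called higher and 4 lower with AT7519 in Scr (median log2 fold change 0.31), against 21.8% of all tested genes called higher and 24.6% lower, while siOGT1 had 13 higher and 4 lower, siOGT2 had 14 higher and 3 lower, and OSMI2 had 11 higher and 4 lower. The core proteins were among those that rose in Scr: SNU13 by 0.69 ± 0.08, FBL (fibrillarin, the methyltransferase) by 0.58 ± 0.07, NOP56 by 0.50 ± 0.10 and NOP58 by 0.55 ± 0.09 for box C/D, and DKC1 (dyskerin, the pseudouridine synthase) by 0.38 ± 0.07, NHP2 by 0.48 ± 0.08 and NOP10 by 0.57 ± 0.08 for H/ACA. GAR1 did not pass (-0.04 ± 0.09). The assembly factor ZNHIT6 fell by 1.42 (SE 0.11), the cap trimethylase TGS1 by 1.08 (SE 0.10), the Cajal body protein COIL by 0.58 (SE 0.12) and SHQ1, a chaperone of dyskerin, by 0.38 (SE 0.10). Of 10 genes for nuclear and cytoplasmic exonucleases, their cofactors and lariat debranching, 0 were called higher and 4 lower in Scr, with 6 not passing, beside the same 24.6% of all tested genes called lower. The 4 were DBR1, the enzyme that opens intron lariats, with -0.90 ± 0.11, TENT4B with -0.76 ± 0.09, the exosome subunit EXOSC3 with -0.73 ± 0.11 and XRN1 with -0.39 ± 0.08, while the nuclear exosome nuclease EXOSC10 did not pass (0.09 ± 0.09). Against Scr under DMSO, OSMI2 had 0 of the 22 particle genes called higher and 9 lower (median log2 fold change -0.30), where 2.49% of all tested genes were called lower, while siOGT1 had 1 higher and 0 lower and siOGT2 had 0 higher and 1 lower. These OSMI2 calls may depend on the processing. All genes called lower there numbered 593 with TMM, 221 with upper-quartile and 181 with library-size scaling. Of the 9, SHQ1 and NOP56 passed narrowly (adjusted p = 0.0423 and 0.0442, edgeR). The 9 calls were not recomputed under other settings.

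Few members were called between the OGT arms and Scr in the absence of AT7519. Against Scr under DMSO, siOGT1 had 0 members called higher and 3 lower (4.89% and 5.51% of all tested genes), siOGT2 had 0 and 2 (1.92% and 2.38%), and OSMI2 had 0 and 2 (0.491% and 2.49%). The 3 comparisons share the 2 Scr DMSO libraries. The median log2 fold change of the members was -0.34 for siOGT1, -0.24 for siOGT2 and -0.20 for OSMI2, and that of all genes lay between -0.02 and -0.01.

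SNORA33 and SNORD100, both in RPS12, were called lower with both siRNAs. Under DMSO, SNORA33 had 1.27 and 1.45 CPM in siOGT1, with 1.44 and 1.77 in siOGT2 and with 1.74 and 1.91 in OSMI2, against 2.41 and 2.76 in Scr. All 6 values lie below both Scr values, with log2 fold changes of -0.93 ± 0.17 for siOGT1 (adjusted p = 0.00131, edgeR), -0.68 ± 0.18 for siOGT2 (adjusted p = 0.0309, edgeR) and -0.50 ± 0.17 for OSMI2, which did not pass (adjusted p = 0.126, edgeR). SNORD100 had 0.431 and 0.404 CPM in siOGT1, with 0.408 and 0.418 in siOGT2 and with 0.656 and 0.612 in OSMI2, against 0.982 and 0.850 in Scr. Its log2 fold changes were -1.13 ± 0.23 (adjusted p = 0.00287, edgeR), -1.16 ± 0.25 (adjusted p = 0.0117, edgeR) and -0.54 ± 0.22, the last of which did not pass. SNORD101, the third snoRNA of RPS12, had 0.537 and 0.582 CPM in siOGT1, with 0.850 and 0.647 in siOGT2 and with 0.758 and 0.474 in OSMI2, against 1.16 and 0.863 in Scr, and passed in none (adjusted p = 0.052 for siOGT1, edgeR). RPS12 itself had 905 and 849 CPM in siOGT1, with 890 and 808 in siOGT2 and with 996 and 1022 in OSMI2, against 1122 and 1113 in Scr, and was called lower with siOGT1 (-0.35 ± 0.08) and siOGT2 (-0.40 ± 0.08). The siOGT2 calls of both snoRNAs were lost without Scr DMSO replicate 1 (adjusted p = 0.0781 for SNORA33 and 0.112 for SNORD100) or either siOGT2 DMSO library, that of SNORA33 also without Scr DMSO replicate 2 (adjusted p = 0.220), and the siOGT1 call of SNORD100 was lost without Scr DMSO replicate 1 (adjusted p = 0.0513).

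The other calls were SNORD72, SNORA73B and SNORD17. SNORD72, in RPL37, had 0.0687 and 0.0646 CPM in siOGT1 against 0.203 and 0.167 in Scr (log2 fold change -1.45 ± 0.46, adjusted p = 0.0476, edgeR), while RPL37 did not pass (-0.10 ± 0.10). SNORA73B, one of the U17 snoRNAs that serve in rRNA precursor cleavage, lies in RCC1 and SNHG3. It had 0.802 and 0.649 CPM in OSMI2 against 1.25 and 1.88 in Scr (-1.10 ± 0.28, adjusted p = 0.0356, edgeR), and RCC1 was called lower as well (-0.46 ± 0.08). SNORD17 had 3.15 and 3.66 CPM in OSMI2 against 4.57 and 6.34 in Scr (-0.67 ± 0.17, adjusted p = 0.0371, edgeR). Neither OSMI2 call was kept without Scr DMSO replicate 2 (adjusted p = 0.467 for SNORA73B and 0.550 for SNORD17), without either OSMI2 DMSO library, or under upper-quartile or library-size scaling. The SNORD72 call was lost under most alternatives, among them limma (adjusted p = 0.0651), no filter on low counts (0.105), only the compared groups (0.142), upper-quartile and library-size scaling, and leaving out any 1 of the 4 siOGT1 and Scr DMSO libraries (up to 0.282), while its log2 fold change stayed between -1.57 and -1.29.

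**Figure D5:**
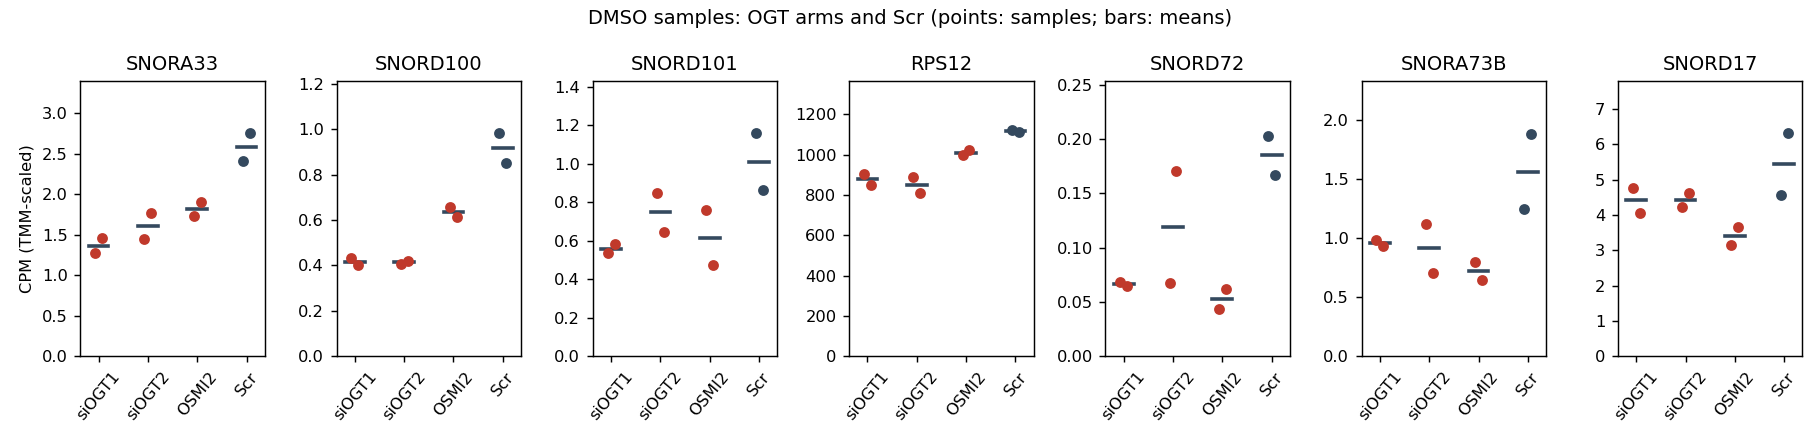
CPM in the DMSO libraries, on linear axes from 0, of the members called against Scr, of SNORD101 and of the host RPS12; points are libraries (red in the OGT arms, dark in Scr) and bars are means of 2. SNORA33, SNORD100, SNORD101, SNORA73B and RPS12 are below both Scr libraries in all 6 libraries of the OGT arms.

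The AT7519 response of the members was not shown to differ between the OGT arms and Scr. The interaction term was called for 0 of 135 members with siOGT1, siOGT2 and OSMI2, where it was called for 0.0504%, 0% and 0.747% of all tested genes (12, 0 and 178 genes). By an unadjusted p under 0.05 it was 5, 4 and 15 members, and DESeq2 and limma also called 0 in each. The smallest adjusted p was 0.484 for siOGT1 (SNORA2A) and 0.296 for OSMI2 (SNORA65, edgeR). For siOGT2 no member had an adjusted p under 0.99985 (edgeR), a value that many genes share, so no member stands out there. For SNORA33 the interaction was 0.17 ± 0.22 with siOGT1, 0.14 ± 0.23 with siOGT2 and 0.09 ± 0.22 with OSMI2, none of which passed. SNORD72 had interactions of 0.89 ± 0.55, 0.48 ± 0.56 and 1.60 ± 0.60, none of which passed.

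Replicates were not even in the AT7519 groups. The summed member level was higher in replicate 2 by 1.33 times in siOGT1, 1.40 times in siOGT2 and 1.34 times in Scr with AT7519, and 104, 112 and 101 of the 135 members were higher in replicate 2. In OSMI2 with AT7519 the ratio was 0.972 and in the DMSO groups it ran from 0.876 to 1.05. The part of this difference in the calls was not tested. Leaving out a library cannot measure it, since that also leaves 1 library in the group and so fewer calls for any gene. Among such steps, only leaving out siOGT1 AT7519 replicate 2 moved an AT7519 count of called members by more than 1.5 times.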

How the data were processed

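Counts per gene for 16 libraries were deposited by the authors as whole numbers, and a second deposited table holds a signal, the same counts divided by 1 size factor per library. The submitters' processing notes name STAR, HTSeq, DESeq2, hg19 and GRCh37 without versions or roles. No strand setting, annotation release or filter was given in the sources used here.

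The members and the lists of genes were chosen with earlier results of these data known. Members were named by rule: the 4 most abundant of each class, the largest rises and falls among members called in Scr (5 and 3 of SNORA and of SNORD, 3 and 2 of SCARNA), the members called in the OGT comparisons, members with their own promoters, SNORA33, and their hosts. Other members were named after their values were seen, as was the split of SNHG14 from the other non-coding hosts and of the SNORD116 copies into 2 groups.

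Counts of 60252 genes were filtered with filterByExpr to 23830, scaled with TMM and fitted with edgeR 4.0.16 (glmQLFit, robust; R 4.3.3) with 1 mean per group over all 16 libraries, 8 residual degrees of freedom and a common biological coefficient of variation of 0.11. The tests were two-sided quasi-likelihood tests, with Benjamini-Hochberg adjustment over all tested genes and a call at an adjusted p under 0.05. Errors of log2 fold changes are SE, taken as the absolute log2 fold change divided by the square root of the test's F statistic. All 135 members passed the filter. A member and its host are counted but not reported by name here. With 2 libraries a group, precision rests on the spread shared over all groups, and the floor of 3 counts covers counting error only. Symbols, hosts and sequences are from GENCODE release 29 (GRCh38), which matched 55528 identifiers. Results were recomputed with DESeq2 1.42.0, with 3 other scalings (RLE, upper quartile, library size), with limma 3.58.1 on log2 of the deposited signal plus 1, with other filters and thresholds, a replicate block, the compared groups alone, and leaving out each library. The fit was tested on simulated data.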

Additional observations from a re-analysis of the deposited data

Results flagged for a closer look

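Among siOGT1, siOGT2 and OSMI2, there were 4 members for which every library of 1 arm moved one way with AT7519 and every library of another arm the opposite way. Scr was left out of this search, as its difference from each of these arms was tested by the interaction term. None of these changes passed edgeR's test in its own arm, and the difference between the arms was not tested. SNORD116-14 had a log2 fold change of -0.41 in siOGT2 and 1.03 in OSMI2. SNORA2B had -0.73 in siOGT1 and 1.03 in siOGT2. SNORA11 had -0.71 in siOGT1 and 1.46 in OSMI2. SNORA80C had 1.12 in siOGT1, -0.23 in siOGT2 and -1.35 in OSMI2.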

How the results depend on the processing

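The number of members called with AT7519 stayed within 1.5 times of the reported number under RLE scaling (79 in siOGT1, 86 in siOGT2, 93 in OSMI2 and 84 in Scr), upper-quartile scaling (83, 87, 96 and 86), library-size scaling (67, 71, 82 and 72) and DESeq2 (79, 84, 90 and 83). Testing only genes with a mean log2 CPM of 3 or more left 1 member to test, and 1 was called in each of the 4 arms. Among members with a mean of 50 or more, 45 were called in Scr. Leaving out 1 library at a time gave 52 to 79 members in siOGT1, 66 to 85 in siOGT2, 69 to 91 in OSMI2 and 60 to 82 in Scr, and 0 to 0 for each interaction.

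Calls against Scr under DMSO were few and moved more. For siOGT1 they were 8 with DESeq2, 7 with no filter on low counts, 1 at a mean log2 CPM of 3, and 1 to 5 with 1 library left out. For siOGT2 they were 1 with library-size scaling, 1 at a mean log2 CPM of 3, 1 for changes of 2-fold or more, 0 with the compared groups only, and 0 to 2 with 1 library left out. For OSMI2 they were 0 with upper-quartile scaling, with library-size scaling and at a mean log2 CPM of 3, 1 for changes of 2-fold or more, and 0 to 2 with 1 library left out. The cause was not tested. Replicate numbers could not be taken to pair the libraries: the correlation of replicate differences between AT7519 and DMSO of an arm ran from -0.023 to 0.047, although it was 0.168, 0.191 and 0.189 among the AT7519 groups of Scr, siOGT1 and siOGT2 and 0.109 between siOGT1 and Scr with DMSO. With the replicate block 76, 84, 92 and 82 members were called with AT7519 in siOGT1, siOGT2, OSMI2 and Scr, and 6, 2 and 4 against Scr under DMSO.

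Of 723 recomputed values of named members and contrasts, 662 kept direction and side of the threshold and 59, in 9 contrasts, no longer passed. SCARNA9 in Scr, which had not passed, turned to -0.015 with library-size scaling, and leaving out 1 library at a time gave -0.27 (without Scr AT7519 replicate 2) to 0.61. The median log2 fold change of all genes in Scr was -0.05 with TMM, 0.10 with upper-quartile and -0.30 with library-size scaling, and the genes called higher and lower were 5206 and 5866, 6714 and 4730, and 3024 and 8207. The low counts of most members limit what a change that did not pass can show.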
